A study of Homo sapiens with 3 samples.

Results

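All 37 genes of the human mitochondrial genome were described, out of 62754 genes measured by RNA-seq in 3 replicates of untreated MCF10A cells. They are every gene annotated on chrM in GENCODE release 44 on hg38, and comprise 13 genes for mRNAs, 2 for rRNAs and 22 for tRNAs. MCF10A cells are human breast epithelial cells that grow without limit in culture but do not form tumours. The cells had been transduced with the empty vector of the Retro-X Tet-One inducible system, which carried no gene of interest, and selected with puromycin. They were harvested with neither doxycycline nor another treatment, and all 3 replicates belong to batch 1, so no groups could be compared. The labels do not say whether the replicates were separate cultures, so each SD measures only the spread between these libraries. Libraries were made from 300 ng of total RNA after depletion of ribosomal RNA, with fragments aimed at inserts of 200 to 300 bases. Values are TPM, that is, reads per base of a gene scaled to a total of 1000000 per library. This lets genes of different length be set side by side, if the length used is that of the expressed transcript and well above that of the inserts. The deposited values gave whole reads with the length of the longest annotated transcript. A nuclear gene expressed mostly as a shorter one thus has too low a TPM.

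The labelled cell type was checked first. All 9 markers of basal breast epithelium had a mean of at least 1 TPM, as did 24.9% of all genes and 56.7% of protein-coding genes. The lowest were the adhesion gene CDH1 at 29.1 TPM and the transcription factor TP63 at 49.8 TPM. Highest were the basal keratins, KRT14 at 4144 TPM and KRT5 at 6612 TPM. KRT17 (2669 TPM), ITGA6 (813 TPM), LAMB3 (664 TPM), ITGB4 (561 TPM) and EGFR (203 TPM) lay between these. Of 5 markers of other cell types, the erythroid gene HBB had no read, the leukocyte gene PTPRC was at 0.0728 TPM and the muscle gene DES at 0.177 TPM, while the endothelial gene PECAM1 reached 1.77 TPM and the fibroblast collagen COL1A1 4.96 TPM. Luminal breast markers were not in these lists, so basal and luminal cells were not told apart. Recovered reads on annotated genes numbered 15273329, 15446347 and 11166546 in replicates 1, 2 and 3.

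Human mitochondria keep a small circular genome of their own, present in many copies per cell and transcribed inside the organelle by the polymerase POLRMT with the factors TFAM and TFB2M. Long precursors are made from both strands and cut at the tRNAs that lie between most of the other genes, which releases mRNAs, rRNAs and tRNAs together. The mRNAs encode core membrane subunits of respiratory complexes I, III and IV and of the ATP synthase, complex V. Every other subunit, and every protein that transcribes, cuts, modifies or degrades these RNAs, is encoded in the nucleus and imported. The strands are called heavy and light after their content of guanine, and a gene is called heavy-strand-encoded here where its RNA is copied from the heavy strand.

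The genome is packed with little space to spare. Of its 16569 bases, 1211 lay in no gene on either strand. The + strand of the reference, which has the sequence of RNA copied from the heavy strand, holds 28 genes: 12 mRNAs, both rRNAs and 14 tRNAs. The - strand holds 9 genes, the mRNA MT-ND6 and 8 tRNAs. Among the mRNA genes there are 3 places where neighbours on the + strand share bases. They are shown because a read that falls there belongs to both genes. A counting program may give it to 1 of them, count it for both, share it out or drop it. In the first sequence the capitals are the start codon of MT-ATP6 and the stop codon of MT-ATP8, which bound the 46 shared bases. In the others the capitals are the shared bases themselves, 7 between MT-ND4L and MT-ND4 and 1 between MT-ATP6 and MT-CO3.
MT-ATP8 and MT-ATP6, chrM:8527-8572, + strand: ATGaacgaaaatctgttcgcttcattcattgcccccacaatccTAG
MT-ND4L and MT-ND4, chrM:10750-10776, + strand: acctactccaATGCTAAaactaatcgt
MT-ATP6 and MT-CO3, chrM:9197-9217, + strand: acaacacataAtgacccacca

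The shortest genes are the tRNAs, and their reads over all replicates ranged from 0 to 183 per gene. Below are the 4 with the most reads and 2 of the 8 with none, from the 5′ end with the anticodon in capitals. The anticodon was found as the 3 letters, known for each amino acid, between a T and an A or G at bases 20 to 40, and this search gave 1 match in 20 of the 22 tRNA genes. All sequences were read from chrM of hg38.
MT-TP, proline, chrM:15956-16023, - strand: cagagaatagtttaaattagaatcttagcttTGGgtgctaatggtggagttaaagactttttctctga
MT-TW, tryptophan, chrM:5512-5579, + strand: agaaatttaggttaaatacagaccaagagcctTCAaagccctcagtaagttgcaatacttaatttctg
MT-TQ, glutamine, chrM:4329-4400, - strand: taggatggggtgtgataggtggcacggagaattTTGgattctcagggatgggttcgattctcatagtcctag
MT-TE, glutamate, chrM:14674-14742, - strand: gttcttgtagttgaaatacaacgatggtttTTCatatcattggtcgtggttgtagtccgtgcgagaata
MT-TG, glycine, chrM:9991-10058, + strand: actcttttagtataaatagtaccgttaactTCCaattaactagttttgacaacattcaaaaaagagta
MT-TR, arginine, chrM:10405-10469, + strand: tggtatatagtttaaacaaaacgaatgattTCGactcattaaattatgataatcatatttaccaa

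The 37 genes together held 6.22%, 5.93% and 6.27% of TPM in replicates 1, 2 and 3, a mean of 6.14% ± 0.184 (SD, n = 3). Their share of reads, which takes no account of gene length, was smaller at 2.24%, 2.19% and 2.54%. The 95% Wilson intervals of the shares of reads ran from 2.23% to 2.25%, from 2.18% to 2.19% and from 2.53% to 2.55%, and cover counting error only. In RNA from whole cultures, more mitochondrial genomes per cell and more RNA per genome cannot be told apart. Of the 37 genes, 28 had a mean of at least 1 TPM, against a background of 24.9% of all 62754 genes. These were all 13 mRNAs, both rRNAs and 13 of the 22 tRNAs, and 23 of the 37 reached 1 TPM in every replicate. By RNA type, the mRNAs held 96.7% ± 0.538 of mitochondrial TPM, the rRNAs 2.46% ± 0.446 and the tRNAs 0.835% ± 0.110. By strand, the heavy-strand-encoded genes held 98.5% ± 0.182 and the light-strand-encoded genes 1.48% ± 0.182. Of mitochondrial reads, the light-strand-encoded genes held 0.477% ± 0.0829.

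The mRNAs for complex IV, cytochrome c oxidase, stood above every other mRNA of the genome. This enzyme passes electrons from cytochrome c to oxygen, and its 3 mitochondrial subunits form its catalytic core. MT-CO3 (chrM:9207-9990) was at 13078, 11602 and 12701 TPM in replicates 1, 2 and 3, a mean of 12460 ± 767 TPM. MT-CO1 (chrM:5904-7445), whose product carries the haem groups where oxygen is reduced, was at 13088, 11886 and 11438 TPM, a mean of 12138 ± 853 TPM. MT-CO2 (chrM:7586-8269), whose product takes the electron from cytochrome c, was at 11369, 10294 and 11641 TPM, a mean of 11101 ± 713 TPM. The order of the 3 changed between replicates. They were the highest 3 of all 20046 protein-coding genes in the table by mean TPM and held 58.1% ± 1.91 of mitochondrial TPM. The lowest of them lay 1.84, 1.65 and 1.92-fold above the highest mRNA of complex I in the 3 replicates.

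**Figure D1:**
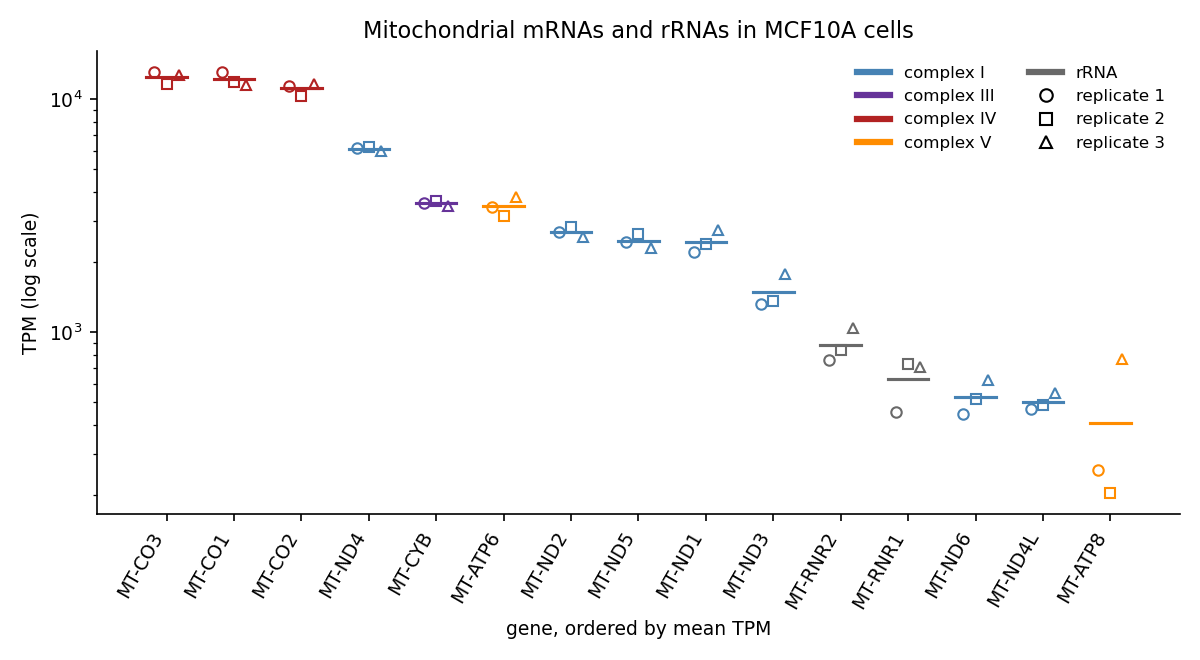
TPM on a log scale (vertical axis) of the 13 mitochondrial mRNAs and 2 rRNAs (horizontal axis, by mean), in 3 replicates of MCF10A cells shown as circle, square and triangle; the bar is the mean and the colour the complex. The 3 complex IV mRNAs lie highest in every replicate, MT-ND6, MT-ND4L and MT-ATP8 have the lowest means, and replicate 3 stands apart for MT-ATP8.

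The 7 mRNAs for complex I, the NADH dehydrogenase that feeds electrons into the chain, spanned from 500.2 to 6127 TPM. All 7 products sit in its membrane arm, which pumps protons. MT-ND4 (chrM:10760-12137) was highest at 6162, 6251 and 5967 TPM, a mean of 6127 ± 145 TPM, and ranked 7 among protein-coding genes. MT-ND2 (chrM:4470-5511) was at 2678, 2821 and 2555 TPM, and MT-ND5 (chrM:12337-14148), with the longest mRNA of the genome, at 2429, 2637 and 2303 TPM. MT-ND1 (chrM:3307-4262), whose product lies where the arms of the enzyme meet, was at 2200.3, 2392 and 2733 TPM. These 3 had means of 2442 to 2685 TPM, below MT-ND4 in every replicate. MT-ND3 (chrM:10059-10404) was at 1326, 1357 and 1783 TPM, with replicate 3 above the others. MT-ND4L (chrM:10470-10766) was at 467, 488 and 546 TPM, a mean of 500.2 ± 41.2 TPM. MT-ND6 (chrM:14149-14673) was at 443, 516 and 624 TPM, a mean of 528 ± 91.1 TPM. Although complex I has the most mRNAs, they held 26.4% ± 1.26 of mitochondrial TPM.

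Cytochrome b, the only mitochondrial subunit of complex III, is encoded by MT-CYB (chrM:14747-15887), which was at 3598, 3658 and 3490 TPM, a mean of 3582 ± 85.4 TPM. The replicates differed little, with a coefficient of variation of 2.38%. Complex V, which makes ATP from the proton gradient, has a pair of mitochondrial mRNAs that overlap and are carried on the same transcript. MT-ATP6 (chrM:8527-9207), for the subunit that forms the proton path beside the rotor, was at 3450, 3156 and 3795 TPM, a mean of 3467 ± 320 TPM. MT-ATP8 (chrM:8366-8572), for a small subunit of the stator, was at 257, 204 and 765 TPM, a mean of 409 ± 310 TPM. The value in replicate 3 lay far above the other two, so this mean describes none of the libraries well.

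Set in order, the 13 mRNAs spanned 44.1 ± 18.4-fold from highest to lowest within a replicate, at 50.9, 58.2 and 23.3-fold. Each of the 12 pairs of neighbours in the order of means was compared by its log2 difference within each replicate. In 5 pairs the mean difference was larger than 2 SD and had 1 sign in all replicates. MT-CO2 lay above MT-ND4 (1.81-fold), MT-ND4 above MT-CYB (1.71-fold) and MT-ND2 above MT-ND5 (1.09-fold). Further down, MT-ND1 lay above MT-ND3 (1.65-fold) and MT-ND3 above MT-ND6 (2.82-fold). MT-ATP6 was above MT-ND2 in every replicate, by 1.29-fold, but within 2 SD. The other 6 pairs changed order between replicates: MT-CO3 with MT-CO1, MT-CO1 with MT-CO2, MT-CYB with MT-ATP6, MT-ND5 with MT-ND1, MT-ND6 with MT-ND4L and MT-ND4L with MT-ATP8. An exact two-sided sign-flip test over 3 replicates cannot give a p-value below 0.25, so none is given.

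Genes that lie side by side could differ widely. MT-CO3 at 12460 TPM and MT-ND3 at 1488 TPM are neighbours with only the gene for the glycine tRNA between them. MT-ND4L at 500.2 TPM adjoins MT-ND3 on its other side, again with a tRNA gene between. Longer mRNAs tended to have more reads per base, with a Spearman rho of 0.626 between length and mean TPM over the 13 mRNAs, which come from the same libraries and, except for MT-ND6, from the same strand. Levels overlapped between the forms of the stop codon. The 6 mRNAs whose gene ends in T or TA, so that the stop codon has to be completed by adenylation, had means of 1488 to 12460 TPM, and the 7 with a complete stop codon had means of 409 to 12138 TPM.

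Both pairs of mRNA genes that share more than 1 base had a low first member and a high second member. In the pair that shares 1 base, MT-CO3 exceeded MT-ATP6 by 3.60 ± 0.230-fold. MT-ATP6 exceeded MT-ATP8 by 13.4, 15.4 and 4.96-fold in replicates 1, 2 and 3. MT-ND4 exceeded MT-ND4L by 13.2, 12.8 and 10.9-fold, a mean of 12.3 ± 1.22-fold. In cells the pairs that share more than 1 base are known as bicistronic mRNAs, in which the members lie on the same molecule. Dividing the reads by the bases that a gene does not share gave 11.3, 12.95 and 4.16-fold for MT-ATP6 and 12.1 ± 1.20-fold for MT-ND4. MT-ATP8 has 161 unshared bases of 207, fewer than the shortest insert aimed for, and MT-ND4L has 290 of 297. How reads over bases of more than 1 gene were counted is not given in the sources used here, and its part in these ratios was not tested.

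MT-ND6 is the only mRNA read from the other strand. The median of the 12 heavy-strand-encoded mRNAs lay 6.91, 5.79 and 4.98-fold above it in replicates 1, 2 and 3, a mean of 5.90 ± 0.969-fold. Its neighbour on the opposite strand, MT-ND5, exceeded it 4.76 ± 0.945-fold. MT-ND6 was not the lowest mRNA, since MT-ND4L was lower in replicates 2 and 3 and MT-ATP8 in replicates 1 and 2. Its sequence shows the strand it comes from: 35.6% of its bases were G and 7.05% C, while G made up 6.28% to 16.2% of the heavy-strand-encoded mRNAs. Whether strand was used in counting is not given in the sources used here, and without it RNA from the other strand of the same span cannot be told apart from that of the gene.

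The rRNAs, which form the core of the mitochondrial ribosome, are the targets of the depletion step together with the cytosolic rRNAs, so their values are what was left and not levels in the cell. MT-RNR1 (chrM:648-1601), the small subunit rRNA, was at 455, 728 and 711 TPM, a mean of 631 ± 153 TPM. MT-RNR2 (chrM:1671-3229), the large subunit rRNA, was at 760.03, 835 and 1039 TPM, a mean of 878 ± 144 TPM. Replicate 1 was lowest for both. The ratio of MT-RNR2 to MT-RNR1 was 1.67, 1.15 and 1.46, and the median mRNA lay 3.71 ± 0.648-fold above the mean of the rRNAs. Together they took 3.11% ± 0.573 of mitochondrial reads.

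The tRNA genes took almost no reads. There were 166, 173 and 183 reads on all 22 genes in replicates 1, 2 and 3, or 0.0547% ± 0.00851 of mitochondrial reads. On genes of 59 to 75 bases a single read was worth 2.49 to 3.84 TPM, so their TPM values rest on few reads and the reads are given here. MT-TP, for proline, had 81, 55 and 47 reads, and its mean of 179 ± 43.6 TPM was the highest. MT-TW, for tryptophan, had 25, 26 and 34 reads, MT-TQ, for glutamine, 20, 17 and 36, and MT-TE, for glutamate, 11, 23 and 25. MT-TS1, for serine with UCN codons, had 3, 22 and 10 reads and MT-TT, for threonine, 5, 10 and 16. MT-TA, for alanine, had 3, 4 and 9 reads and MT-TI, for isoleucine, 6, 1 and 2. These 8 genes had reads in every replicate. Another 6 had reads in some replicates: MT-TY, MT-TN, MT-TC, MT-TF, MT-TV and MT-TM, with 14, 7, 4, 3, 2 and 1 reads in all.

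The other 8 tRNA genes, MT-TL1, MT-TD, MT-TK, MT-TG, MT-TR, MT-TH, MT-TS2 and MT-TL2, had no read in any replicate. At this depth a count of 0 allows up to 3 reads in a library, so a low level was not detectable. On genes of these lengths that is 9.04 to 11.5 TPM in the library where a read is worth most, and less in the others. All 8 are on the + strand. Mature tRNAs are shorter than the inserts aimed for, folded and modified, such libraries are not made to capture them, and reads of a mature tRNA and of a precursor that holds it cannot be told apart here. For each gene the stretch of its strand was measured from the end of the gene before it to the start of the gene after it, as the longest fragment that touches no other gene of that strand. Genes of the other strand were left out, and would shorten some stretches if counting did not use strand. Whether it did is not given in the sources used here. The 9 genes where this stretch was 392 to 8257 bases held 499 of the 522 reads, with a median of 35 reads per gene and none at 0. The 13 genes where it was 59 to 140 bases, below the shortest insert of 200 bases aimed for, held 23 reads, and 8 of them had none. MT-TF, which faces the non-coding control region, was the lowest of the 9 with 1, 0 and 2 reads. Strand and spacing go together, since 6 of the 8 tRNA genes of the - strand and 3 of the 14 of the + strand have the longer stretch, so the counts are also given within each strand. On the + strand the 3 genes with the longer stretch held 119 reads, a median of 31, and the other 11 held 12 reads, a median of 0. On the - strand the 6 genes with the longer stretch held 380 reads, a median of 47, and the other pair held 11 reads, 7 for MT-TN and 4 for MT-TC.

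**Figure D2:**
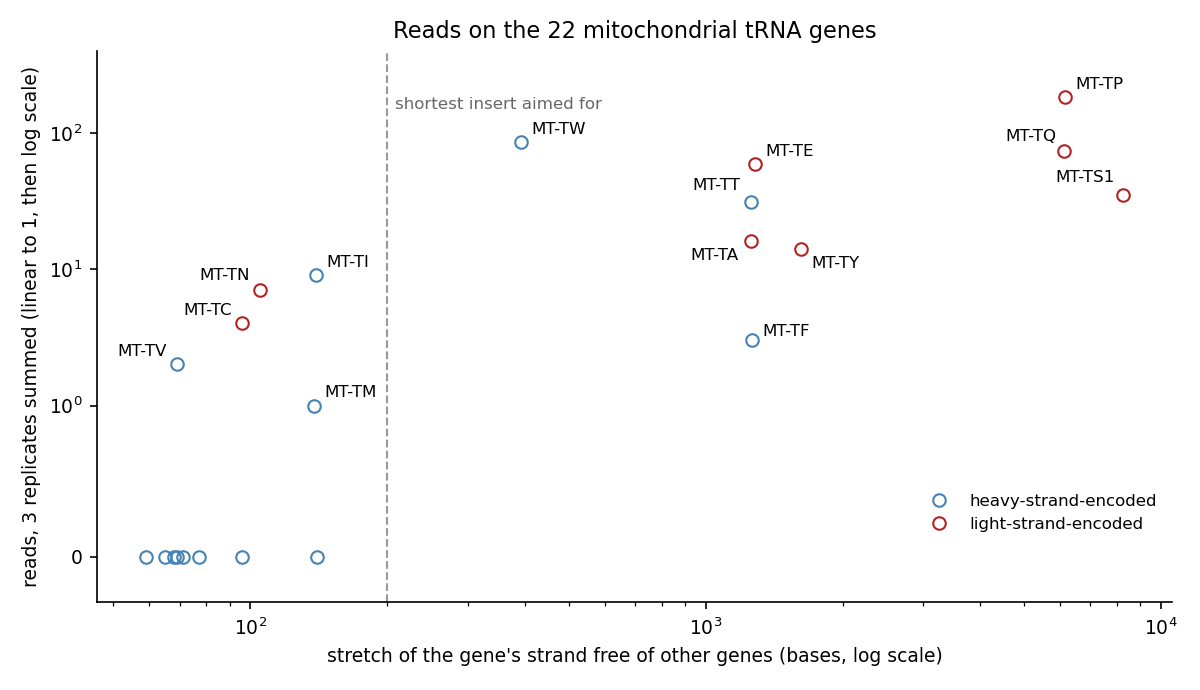
Reads summed over 3 replicates (vertical axis, linear to 1 and then on a log scale) on each of the 22 mitochondrial tRNA genes against the stretch of its strand that holds no other gene (horizontal axis, bases on a log scale), with colour for the strand and a dashed line at the shortest insert aimed for, 200 bases. All 8 genes without a read lie left of the line and are not named, and the 9 genes right of it hold 499 of 522 reads.

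Replicate 3 differed from the others in a way that followed the length of the mRNAs. Against the mean of replicates 1 and 2, its log2 ratio of TPM + 0.1 was 1.73 for MT-ATP8, the shortest at 207 bases, which is 3.32-fold. MT-ND3 (346 bases) was at 0.41, MT-ND6 (525 bases) at 0.38, MT-ND4L (297 bases) at 0.19 and MT-ATP6 (681 bases) at 0.20. Of the other mRNAs under 1000 bases, MT-ND1 (956 bases) was at 0.25, MT-CO2 (684 bases) at 0.10 and MT-CO3 (784 bases) at 0.04. On this scale all 5 mRNAs of over 1000 bases were lower in replicate 3, from -0.06 for MT-CYB and MT-ND4 through -0.11 for MT-ND2 and -0.13 for MT-CO1 to -0.14 for MT-ND5, the longest. Their direction depends on the scaling: when the TPM of protein-coding genes alone was brought to 1000000 per library, all 13 mRNAs were higher in replicate 3, from 0.05 for MT-ND5 to 1.92 for MT-ATP8. The order by length does not depend on it, since scaling by 1 factor per library moves all these ratios nearly alike. Spearman's rho between length and this ratio was -0.885 over the 13 mRNAs on either scale and -0.853 without MT-ATP8 on the deposited scale. For the ratio of replicate 1 to replicate 2 it was -0.154, and over 8351 nuclear protein-coding genes with a mean of 10 TPM or more the ratio of replicate 3 gave -0.0625. These mRNAs share their libraries and the genes are not independent, so no p-value is given. The rRNAs were at 0.27 for MT-RNR1 (954 bases) and 0.38 for MT-RNR2 (1559 bases), the longer of them higher.

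The median over the 13 mRNAs was 0.10, with 8 higher and 5 lower, against -0.25 over all 15640 genes at or above a mean of 1 TPM, of which 13143 were lower. With protein-coding genes rescaled, the medians were 0.29, with 13 higher, and -0.07, with 9669 lower. Among nuclear protein-coding genes at or above a mean of 10 TPM, it was 0.15 for the 35 genes under 500 bases, -0.16 for 228 genes of 500 to 1000 bases and -0.23 for 1092 genes of 1000 to 2000 bases. The 35 shortest also differed between the other replicates, with a median log2 ratio of replicate 1 to replicate 2 of -0.28. For the mitochondrial mRNAs in these classes it was 0.41, 0.20 and -0.11, over 3, 5 and 5 genes. The longest nuclear class, from 4000 bases, was at -0.25 over 4025 genes. After rescaling the nuclear medians ran from 0.33 in the shortest class to -0.06 in the longest. Of the 28 mitochondrial genes at or above a mean of 1 TPM, 7 were at least 1.5-fold above both other replicates in replicate 3, against a background of 2.62% of these 15640 genes. They were MT-ATP8 and 6 tRNA genes, MT-TF, MT-TV, MT-TQ, MT-TW, MT-TA and MT-TT, which rest on 2 to 36 reads in that library. At least 1.5-fold below both others were 3 genes, MT-TN, MT-TC and MT-TY, against a background of 9.59%, and all 3 had 0 reads there. Replicate 3 also had the fewest reads and the highest values of RN7SL1 and RMRP, a pair of short non-coding RNAs. RN7SL1, the RNA of the signal recognition particle, was at 49293, 56610 and 150632 TPM, and RMRP at 5108, 6573 and 20203 TPM. Rescaling to protein-coding genes takes both out of the total, but as it uses 1 factor per library it could hardly change the rho of -0.885. Whether these RNAs have a part in the trend with length was not tested.

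**Figure D3:**
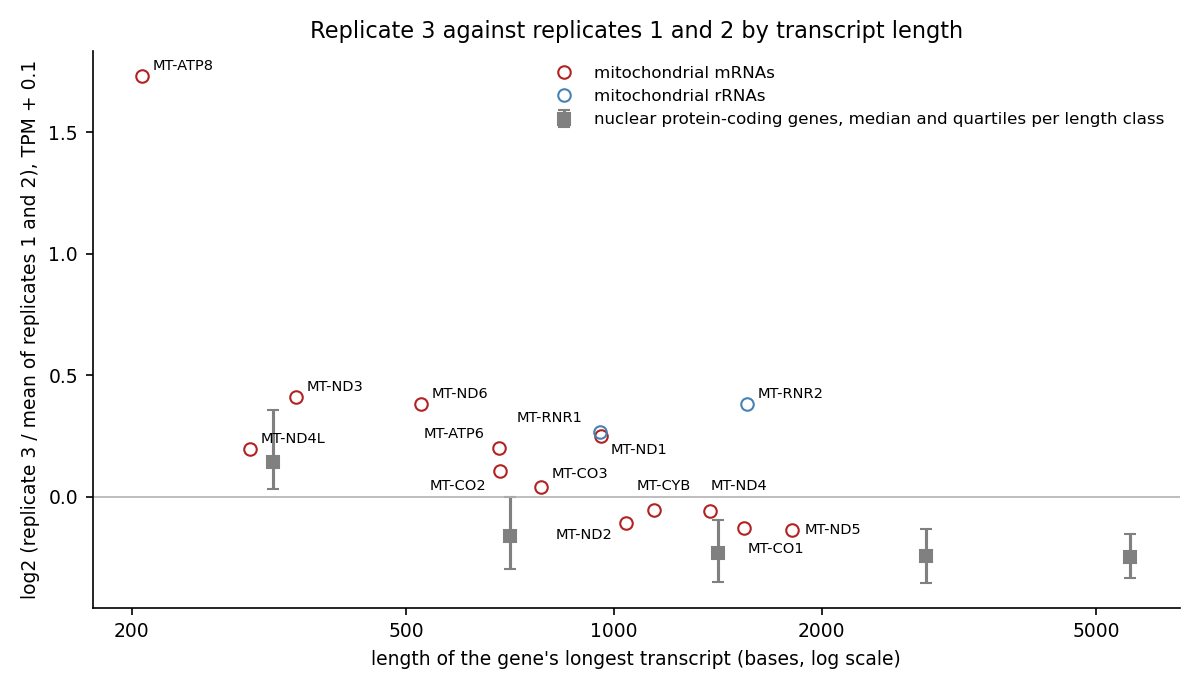
Log2 ratio of TPM + 0.1 in replicate 3 to the mean of replicates 1 and 2 (vertical axis) against transcript length (horizontal axis, bases on a log scale) for 13 mitochondrial mRNAs (red), 2 rRNAs (blue) and nuclear protein-coding genes of at least 10 TPM in 5 length classes (grey, median with quartiles). The mRNAs fall from 1.73 for MT-ATP8 to -0.14 for MT-ND5, and the nuclear medians fall from 0.15 to -0.25; with protein-coding genes rescaled, all 13 mRNAs would lie above 0.

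On the deposited scale the mRNAs apart from MT-ATP8 varied little between replicates. Their SD of log2 TPM was 0.10 in the median over all 13, from 0.03 for MT-ND4 to 1.02 for MT-ATP8, and the coefficient of variation of the other 12 lay between 2.37% and 17.3%. The median SD was 0.14 over the 271 nuclear protein-coding genes at or above the mean level of the lowest mitochondrial mRNA. This comparison can depend on the scaling. With protein-coding genes rescaled, the median log2 ratio of replicate 3 to the mean of replicates 1 and 2 was 0.29 over the 13 mRNAs. Over the 8351 nuclear protein-coding genes at or above a mean of 10 TPM it was -0.05. The SD was not computed on that scale.

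Copies of mitochondrial DNA also lie in the nuclear chromosomes, and reads from the mitochondrion can match them. The annotation names 404 such pseudogenes. Of these, 373 had no read and 31 had at least 1, with 32, 69 and 29 reads in all in replicates 1, 2 and 3, against 342193, 337527 and 284027 reads on the 37 genes. None reached a mean of 10 TPM, and those above 1 TPM were MTND5P2 at 1.64 TPM and MTCYBP3 at 1.42 TPM, both on chromosome 13 and named after their values were seen. The closest copy was a block on chromosome 1 of hg38, from 629062 to 634922, with pseudogenes of 7 mRNA genes in the mitochondrial order: MTND1P23, MTND2P28, MTCO1P12, MTCO2P12, MTATP8P1, MTATP6P1 and MTCO3P12. Between 83.6% and 95.2% of the bases of each lay in stretches of at least 32 bases identical to chrM, and all 7 had 0 reads in every replicate. The block also held 21 of the 25 nuclear stretches of at least 100 bases identical to chrM, the longest of which had 279 bases.

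This similarity was spread unevenly over the mRNAs. Identical nuclear stretches of at least 100 bases covered 58.2% of MT-CO1, 53.7% of MT-ATP6, 52.1% of MT-ND2 and 50% of MT-CO2. The figure was 30.5% for MT-ND1, 29.3% for MT-CO3 and 25.6% for MT-ATP8, where such stretches reach in from both neighbouring sides. It was 0 for MT-ND3, MT-ND4L, MT-ND4, MT-ND5, MT-ND6 and MT-CYB. How reads with several matches were counted is not given in the sources used here, so the levels of the first 7 are less certain than those of the last 6. The same limit holds for MT-RNR1, at 39.7% against 0 for MT-RNR2, and so for their ratio. Among tRNA genes it was 100% for MT-TQ, MT-TA, MT-TN, MT-TS1 and MT-TK. It was 98.5% for MT-TM and MT-TD, 90.9% for MT-TC, 89.9% for MT-TI and 77.3% for MT-TY, and 0 for the others.

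Complexes I, III, IV and V are each built from subunits of both genomes, and in all 4 the median of the mitochondrial mRNAs lay above that of the nuclear ones. The nuclear values rest on the longest annotated transcript of each gene. Where a shorter one is expressed they are too low, which makes the ratios too high. How far this raised the ratios was not tested. In complex IV the median of the 3 mitochondrial mRNAs exceeded the median of 11 nuclear ones by 54.9, 49.5 and 52.7-fold in replicates 1, 2 and 3, a mean of 52.4 ± 2.72-fold. All 3 lay above the highest nuclear one, COX6C at 439 TPM, and the lowest was COX6A1 at 92.4 TPM. In complex I the ratio to 37 nuclear mRNAs was 32.7, 38.7 and 35.5-fold, a mean of 35.6 ± 2.99-fold. Here 5 of the 7 mitochondrial mRNAs lay above the highest nuclear one, NDUFS5 at 620 TPM, and MT-ND4L and MT-ND6 did not. NDUFA7 was lowest at 3.79 TPM, with 77.9% of its bases shared with another gene. In complex III, MT-CYB exceeded the median of 9 nuclear mRNAs 14.0 ± 0.177-fold, and these lay between 35.7 TPM for UQCR11 and 532 TPM for UQCRH.

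Complex V had the lowest mitochondrial share of subunit TPM. The ratio to its 17 nuclear mRNAs was 11.8, 11.6 and 15.8-fold, a mean of 13.1 ± 2.36-fold. MT-ATP6 lay above the highest nuclear one, the catalytic subunit ATP5F1B at 1492 TPM, and MT-ATP8 lay below it. The lowest was ATP5MG at 13.6 TPM. Mitochondrial mRNAs made up 46.6% ± 4.75 of the TPM of all complex V subunits, against 63.1% ± 0.991 in complex III, 81.7% ± 0.883 in complex I and 92.9% ± 0.336 in complex IV. These shares have the same limit of transcript length as the ratios. The mRNA levels say nothing of how much protein is made from either genome.

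**Figure D4:**
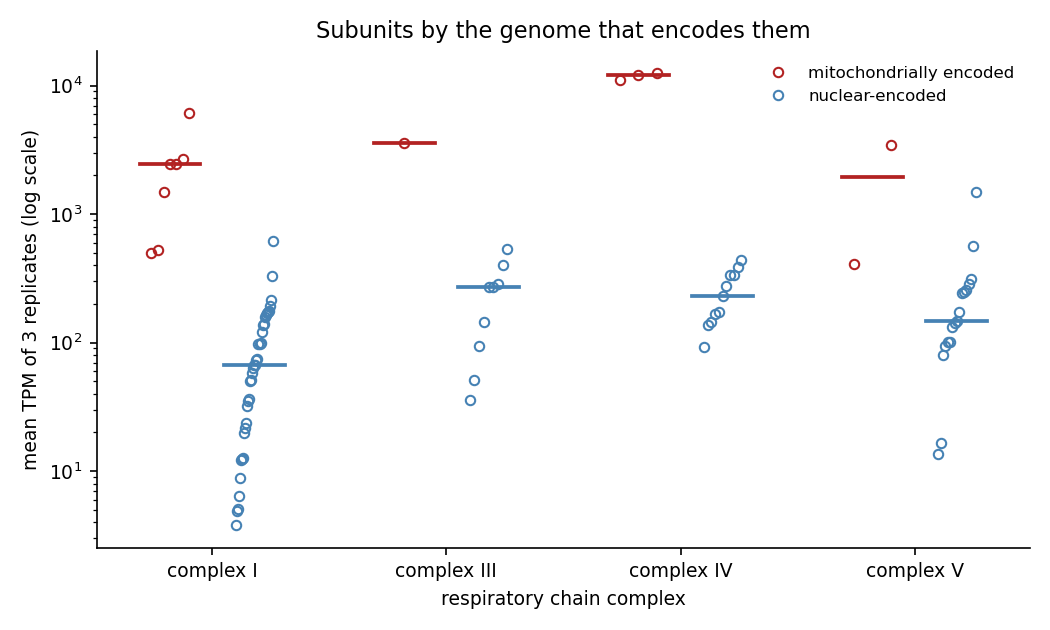
Mean TPM of 3 replicates on a log scale (vertical axis) of the mRNAs for subunits of complexes I, III, IV and V (horizontal axis), with red for mitochondrially encoded and blue for nuclear-encoded subunits; each point is a gene and the bar the median. All 3 mitochondrial mRNAs of complex IV lie above its nuclear ones, while in complexes I and V the ranges overlap.

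The nuclear genes that make and handle these RNAs had mean levels below every mitochondrial mRNA, although SLIRP at 212 TPM lay above MT-ATP8 at 204 TPM in replicate 2. Their levels, too, rest on the longest annotated transcript. Of 57 genes in 4 lists, 56 had a mean of at least 1 TPM, with a median of 38.2 TPM, against 24.9% of all genes and 56.7% of protein-coding genes. All 16 genes for transcription and the nucleoid passed, led by the promoter-melting factor TFB2M (133 TPM), the single-stranded DNA-binding protein SSBP1 (106 TPM) and the DNA-packaging factor TFAM (71.2 TPM). All 16 genes for RNA processing passed, led by ELAC2 (125 TPM), which cuts the 3′ end of tRNAs, TBRG4 (94.1 TPM), also known as FASTKD4, and TRMT10C (92.9 TPM), a part of the enzyme that cuts the 5′ end. Among the 8 genes for RNA stability and decay, SLIRP (202 TPM) and its partner LRPPRC (113 TPM), which keep the mRNAs stable and polyadenylated, and the helicase DHX30 (110.4 TPM) were highest. Of 17 genes for the modification of rRNAs and tRNAs, 16 passed, led by NSUN2 (143 TPM), TRMU (52.2 TPM) and RPUSD4 (47.2 TPM). The exception was the rRNA methyltransferase MRM2 at 0.362 TPM, whose canonical transcript shares 99.8% of its bases with another gene on the same strand, so that its count does not show whether it is expressed.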

How the data were processed

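RNA-seq libraries of 3 untreated MCF10A replicates were made by the authors after depletion of ribosomal RNA, and their methods name Seq2science for processing. The submitters' processing notes list STAR, fastp and MultiQC and the builds hg38 and GRCh38.p14, without versions. The counting tool, annotation release, use of strand and treatment of reads with several matches are not given in the sources used here. The authors deposited TPM values of 62754 genes, with each replicate summing to 1000000. No column of values was left unused (0 columns).

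Members and gene lists were chosen with earlier results of these data known, and the comparisons by length, spacing and nuclear matches were added after values were seen. The genes named are all 37, the 3 highest of each list of the expression machinery and any below 1 TPM, the highest and lowest nuclear subunit of each complex, and both marker lists. Positions and lengths came from GENCODE release 44, in which 62700 of 62754 genes were found by identifier and 54 were not. TPM was multiplied by the length of the longest transcript less 1 base per exon, and divided by the value of 1 read. This gave whole numbers (within 0.01) for 100% of genes in each replicate, with totals of 15273329, 15446347 and 11166546 reads. The recovery was tested on simulated reads of 62700 genes and returned 100% of them. The simulated TPM used the same lengths, so this checks the calculation and not the lengths.

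Ratios were formed within each replicate and averaged. Log2 values used a pseudocount of 0.1. Intervals are 95% Wilson intervals, and a count of 0 was given a limit of 3 reads. Nuclear matches were exact runs of at least 32 bases of chrM, on either strand, in the other chromosomes of hg38. As there is 1 group, no test was run. Alternatives covered cutoffs, scaling, summaries, pseudocount, shared bases and leaving out each replicate. Software was Python 3.11.15, matplotlib 3.10.9, pandas 2.3.3, numpy 2.4.6 and scipy 1.17.1.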

Additional observations from a re-analysis of the deposited data

How the results depend on the processing

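Of 56 values recomputed under alternatives, 47 moved by less than 1 SD between replicates, or by less than 1.5 times for counts, and 9 moved by more. The share of TPM on the 37 genes, 6.14%, was 6.86% for the 13 mRNAs with protein-coding genes rescaled to 1000000 and 2.32% as a share of reads. The share of the tRNA genes, 0.0547% of mitochondrial reads, was 0.835% of TPM. The median log2 ratio of replicate 3 over the 13 mRNAs, 0.10, was 0.29 with protein-coding genes rescaled, and the 5 mRNAs over 1000 bases turned from lower to higher. With means in place of medians over subunits, the ratio of mitochondrial to nuclear mRNAs was 23.7 in complex I, 15.4 in complex III, 48.2 in complex IV and 7.50 in complex V. Leaving out nuclear subunits with most of their bases shared, an alternative chosen after seeing the data, gave 31.0 in complex I. Each of these alternatives changes the quantity itself.

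When 1 replicate was left out, the share of TPM lay between 6.08% and 6.25%, the genes at or above 1 TPM between 28 and 29, and the ratio of the highest to the lowest mRNA between 37.1 and 54.6, the latter without replicate 3. The median heavy-strand-encoded mRNA lay 5.39 to 6.35-fold above MT-ND6, and MT-RNR2 1.30 to 1.57-fold above MT-RNR1. The tRNA share of reads lay between 0.0499% and 0.0578%. The ratios for complexes I, III, IV and V lay between 34.1 and 37.1, 13.9 and 14.0, 51.1 and 53.8, and 11.7 and 13.8. Without 1 of 3 replicates a mean can hardly move by 1 SD, so this says little about stability. No paired analysis was possible because there is only 1 group.

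The depth limits the tRNA genes, where a few reads make the whole value of each gene. Values of overlapping genes, of genes with nuclear matches and of depleted rRNAs rest on counting and depletion steps that were not examined here.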
